A study of Homo sapiens with 24 samples.

Results

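The 8 genes described here are 6 drug efflux pumps (ABCB1, ABCC1, ABCC2, ABCC3, ABCC4 and ABCG2) and 2 enzymes linked to chemoresistance (ALDH1A1 and DPYD). With earlier results of these data known, they were chosen by name, as the probe sets that the platform annotation assigns to these symbols. They make up 8 of the 17448 genes tested, and counts of them beside all genes are descriptions only. Each gene had 1 probe set, and 0 of these probe sets carried a second gene symbol. Expression had been measured on 24 Affymetrix arrays of SW1222 cells, a long-established line from a human colorectal carcinoma, in 9 groups that vary the gene DPPA3, which encodes a small maternal and germ cell protein that binds the DNA methylation factor UHRF1.

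A line with doxycycline-inducible overexpression of DPPA3 (DPPA3-OE) and its control line (control-OE) were each grown as colonies embedded in Matrigel, called 3D, with 5 µg/ml doxycycline over the final 5 days (3 arrays per line). The same lines were grown in 2D with 5 µg/ml doxycycline for 4 hours (3 arrays per line). Lines with a DPPA3 shRNA or a control shRNA had 3 arrays each, and CRISPR knockout clones 66 and 75 and a line with a scrambled guide RNA had 2 arrays each, all in 3D and without the drug. Each knockout group is 1 clone. All cultures were kept at 21% oxygen, and none of the 9 groups is labelled as having received a chemotherapeutic drug. No DPPA3-OE arrays without doxycycline were analysed here, so an effect of induction and a standing difference between the OE lines cannot be told apart. Between 3D and 2D, the culture and the doxycycline time changed together. Whether replicate arrays came from separate cultures is not labelled, so the p-values reflect the spread of these arrays alone, whose number limits the precision.

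ATP-binding cassette pumps use ATP to move compounds out of the cell. ABCB1, also called P-glycoprotein or MDR1, exports many hydrophobic drugs such as taxanes and anthracyclines, ABCG2 exports irinotecan metabolites and mitoxantrone, and the ABCC pumps export drugs and their glutathione or glucuronide conjugates. ALDH1A1 oxidises retinaldehyde to retinoic acid and other aldehydes, and is used as a stem cell marker in several tumours, while DPYD encodes dihydropyrimidine dehydrogenase, the enzyme that starts the breakdown of 5-fluorouracil, a main drug in colorectal cancer.

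Promoter sequences are shown for ABCB1, ABCC2 and ALDH1A1, the 3 genes whose signal was higher in the DPPA3-OE line than in the control-OE line in 2D. Each is 300 bases of RefSeq sequence (GRCh38.p14), from 250 bases before to 50 after a gene start, in the direction of transcription, on the minus strand for ABCB1 and ALDH1A1 and on the plus strand for ABCC2. Capitals mark the CCAAT box (CCAAT, or ATTGG on the other strand), the GC box (GGGCGG or CCGCCC) and the TATA box (TATAAA or TTTATA), searched on both strands.
ABCB1, first entry, chr7:87600835-87601134: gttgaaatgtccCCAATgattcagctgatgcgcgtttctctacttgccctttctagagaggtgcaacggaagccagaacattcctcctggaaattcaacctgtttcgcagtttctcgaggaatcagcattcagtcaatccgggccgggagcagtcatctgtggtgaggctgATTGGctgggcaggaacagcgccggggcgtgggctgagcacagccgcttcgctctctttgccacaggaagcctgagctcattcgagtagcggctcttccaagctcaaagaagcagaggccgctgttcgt
ABCB1, second entry, chr7:87713246-87713545: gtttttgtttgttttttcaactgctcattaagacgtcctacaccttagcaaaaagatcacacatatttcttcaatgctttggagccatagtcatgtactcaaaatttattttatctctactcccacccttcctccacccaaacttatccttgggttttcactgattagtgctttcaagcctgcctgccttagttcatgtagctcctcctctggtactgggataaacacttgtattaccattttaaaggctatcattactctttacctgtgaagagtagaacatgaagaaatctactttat
ABCC2, chr10:99782390-99782689: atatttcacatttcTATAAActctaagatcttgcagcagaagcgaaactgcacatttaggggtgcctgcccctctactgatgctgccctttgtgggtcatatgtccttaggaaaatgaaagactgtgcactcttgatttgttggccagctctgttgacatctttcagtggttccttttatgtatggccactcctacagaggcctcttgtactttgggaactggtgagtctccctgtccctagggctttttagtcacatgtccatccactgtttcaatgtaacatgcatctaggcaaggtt
ALDH1A1, chr9:72953004-72953303: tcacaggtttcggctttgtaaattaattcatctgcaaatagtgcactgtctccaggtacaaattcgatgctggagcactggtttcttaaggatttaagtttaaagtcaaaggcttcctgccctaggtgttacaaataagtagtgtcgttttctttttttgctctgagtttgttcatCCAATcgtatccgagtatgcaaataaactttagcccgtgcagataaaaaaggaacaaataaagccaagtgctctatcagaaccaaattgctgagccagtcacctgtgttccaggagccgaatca
With the base at the start counted as 0, the first ABCB1 entry had CCAAT from position -238 and ATTGG from position -79, and the second entry had none of the 3 motifs. ABCC2 had TATAAA from position -236, and ALDH1A1 had CCAAT from position -74. None of the 4 sequences held the GC box. Among 35116 RefSeq promoters of the same length, 34.6% held a CCAAT box, 45.0% a GC box and 11.5% a TATA box. The first ABCB1 entry had 16 CpG dinucleotides and the second had 1, while ABCC2 had 1, ALDH1A1 had 7 and the median promoter had 14. DPYD, ABCG2 and ABCC4 also had entries, and ABCC1 and ABCC3 had none in the table used. A letter match is a description of the window, not a site in use.

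The signal range of each gene set what could be seen. ALDH1A1 and ABCB1 were bright, with 98.7% and 95.0% of genes having a lower mean signal over the 24 arrays. ABCC1, ABCC3 and ABCC4 lay in the middle or upper part of the scale, with 73.8%, 71.0% and 52.4% of genes below them. ABCC2 was dimmer (35.6% of genes below), and DPYD (15.4%) and ABCG2 (6.84%) were at the dim end, near the floor of the scale. The log2 signal of ABCG2 stayed between 2.17 and 2.47 on every array and that of DPYD between 2.14 and 2.77.

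The genes also differed in how far their group means spread. The highest and lowest of the 9 group means differed by 1.63 log2 for ABCB1, 1.33 for ALDH1A1 and 1.28 for ABCC3, wider spans than those of 98.7%, 97.0% and 96.5% of all genes. The span was 0.96 for ABCC2, 0.56 for ABCC4, 0.40 for ABCC1, 0.24 for DPYD and 0.16 for ABCG2. When the 9 groups were ordered by mean, the arrays of neighbouring groups failed to overlap in 4 of the 8 steps for ABCB1, in 3 for ALDH1A1, in 2 for ABCC3 and in 0 for the other genes. Steps without overlap were not counted over all genes, so these numbers are a description only. For ABCB1 these steps lay between DPPA3-OE in 3D (8.10 ± 0.08, SD, n = 3) and DPPA3-OE in 2D (8.37 ± 0.08, n = 3), the highest group, below both of these, below the shRNA pair, and above clone 66 (6.74 ± 0.06, n = 2). For ALDH1A1, DPPA3-OE in 2D stood alone at the top (9.80 ± 0.14, n = 3).

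**Figure D1:**
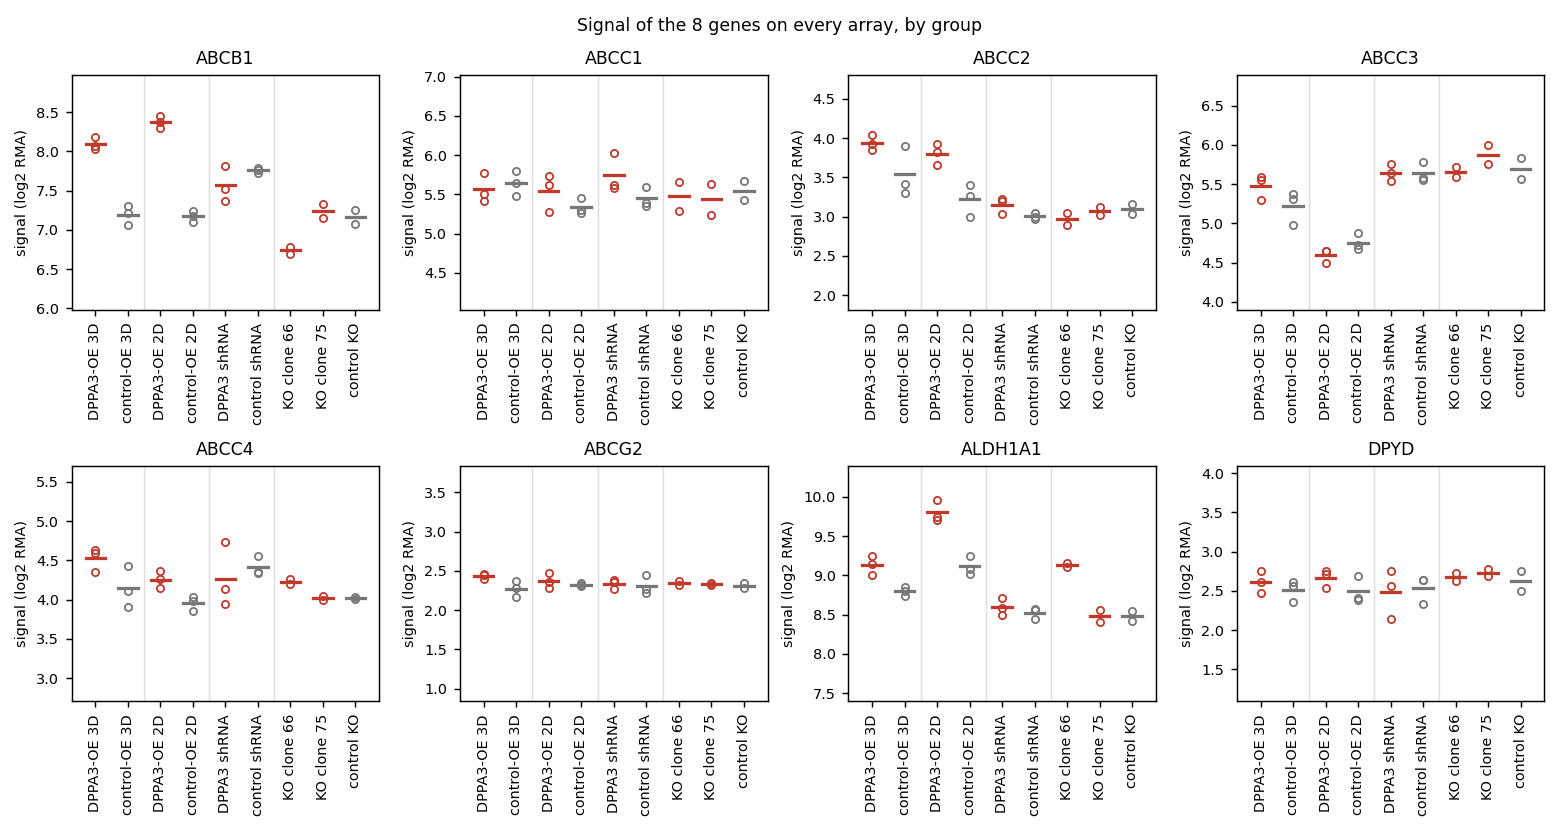
Log2 RMA signal of each gene on every array (open circles) with the group mean (bar), over the 9 groups. Groups with altered DPPA3 are red, control groups grey, and every panel spans 3 log2 units around the gene's mean. ABCB1 is high in both DPPA3-OE groups and lowest in clone 66, ABCC3 is lowest in the 2D groups, and ABCG2 and DPYD are flat.

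Over the 9 comparisons, 10 of 72 differences passed, which here means p under 0.05 in limma after Benjamini-Hochberg adjustment over the 17448 genes. They came from 4 genes: ALDH1A1 in 4 comparisons, ABCB1 in 3, ABCC3 in 2 and ABCC2 in 1. ABCC1, ABCC4, ABCG2 and DPYD passed in 0 comparisons. Of all genes, between 0.086% (DPPA3 shRNA) and 14.9% (DPPA3-OE line in 3D over 2D) passed per comparison, and each share is given below. The plot of differences with their 95% intervals shows all 72.

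**Figure D2:**
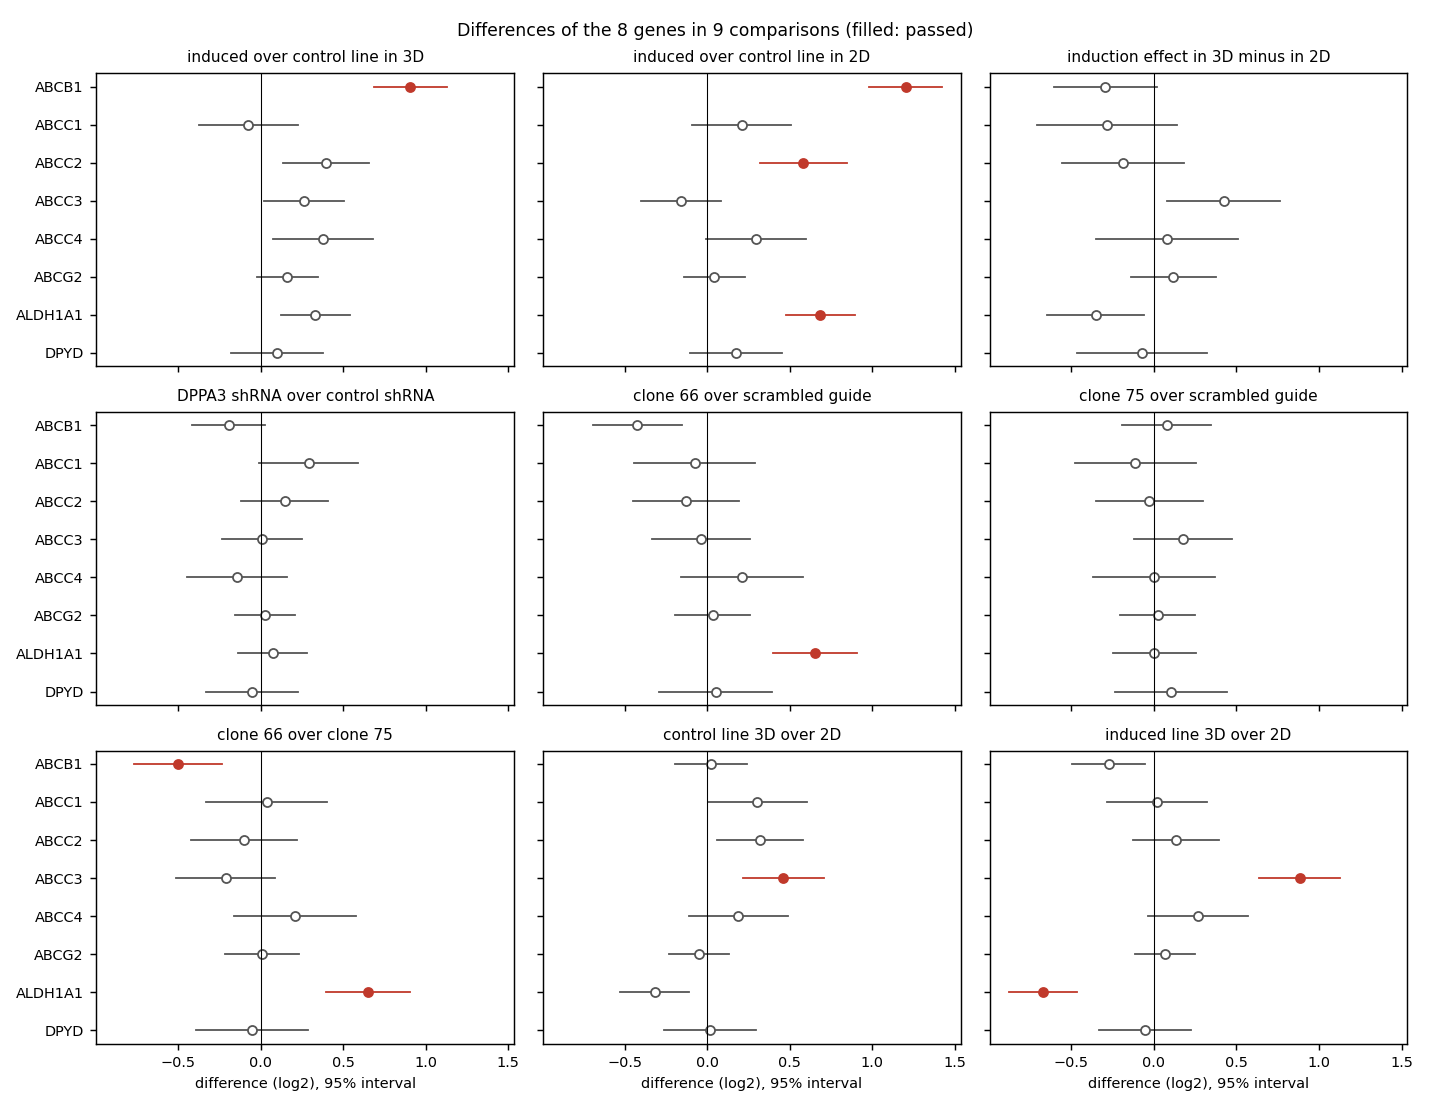
Log2 difference of each gene (point) with its 95% interval (line) from the limma fit, in 9 comparisons named as first group over second. Red filled points passed at an adjusted p under 0.05. ABCB1 passed in both comparisons of the OE lines, at 0.91 in 3D and 1.20 in 2D. No gene passed with the DPPA3 shRNA or in clone 75 over the scrambled guide.

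The OE lines were compared in 3D after 5 days of doxycycline. This comparison and its 2D counterpart are called inductions for short. ABCB1 was 1.87-fold higher in the DPPA3-OE line, and it was the 1 gene of the 8 that passed. The DPPA3 transcript itself, which checks the labels, read 3.77, 4.54 and 4.74 in DPPA3-OE arrays, against 2.99, 2.59 and 2.97 in control-OE arrays. ABCB1 read 8.07, 8.03 and 8.19 in DPPA3-OE arrays, against 7.30, 7.22 and 7.06 in control-OE arrays. The 2 groups did not overlap, and the log2 difference was 0.91 (SE 0.11, adjusted p = 3.12e-06 in limma). Of all genes, 5.7% passed in this comparison, 1 of these 8 passed, and 99.4% of genes had a smaller absolute difference than ABCB1. In bulk cultures like these, a change in the share of cells with a transcript and a change in its amount per cell cannot be told apart.

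ALDH1A1 read 9.0, 9.15 and 9.24 in DPPA3-OE arrays in 3D, against 8.86, 8.73 and 8.81 in control-OE arrays. The groups did not overlap, but the difference of 0.33 log2 (SE 0.10, adjusted p = 0.0512) missed the threshold narrowly. It passed in 3 of 13 alternative settings, whose adjusted p ran between 0.0169 and 0.225. ABCC2 read 3.84, 3.93 and 4.04 in DPPA3-OE arrays, against 3.41, 3.90 and 3.31 in control-OE arrays. One control-OE array lay within the DPPA3-OE range, and the difference of 0.39 log2 did not pass (SE 0.13, adjusted p = 0.0718). Without that array (replicate 2) it was 0.58 (adjusted p = 0.00442), and over its 12 alternatives the adjusted p lay between 0.00442 and 0.335.

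The remaining pumps did not pass in 3D, and for ABCC1, ABCC3 and ABCC4 the arrays of the lines overlapped. ABCC4, which exports cyclic nucleotides and nucleotide analogues, read 4.36, 4.63 and 4.59 in DPPA3-OE arrays, against 4.43, 4.11 and 3.91 in control-OE arrays (difference 0.38, SE 0.15, adjusted p = 0.164). ABCC3, a basolateral pump for bile acids and glucuronides, read 5.59, 5.30 and 5.55 in DPPA3-OE arrays, against 5.37, 5.31 and 4.97 in control-OE arrays (difference 0.26, SE 0.12, adjusted p = 0.257). ABCC1, the first multidrug resistance protein of its subfamily, differed by -0.08 (95% interval -0.38 to 0.22), ABCG2 by 0.16 (-0.02 to 0.34) and DPYD by 0.10 (-0.18 to 0.38). Altogether 7 of the 8 differences were above 0, against 47.4% of all genes. Their median was 0.30, against -0.01 over all genes. The 8 genes were chosen with earlier results of these data known, so this count is a description only.

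With 4 hours of doxycycline in 2D, ABCB1, ALDH1A1 and ABCC2 were higher in the DPPA3-OE line, by 2.3-fold, 1.61-fold and 1.5-fold. DPPA3 read 4.73, 4.18 and 6.16 in DPPA3-OE arrays, against 2.83, 3.27 and 3.47 in control-OE arrays. ABCB1 read 8.29, 8.44 and 8.37 in DPPA3-OE arrays, against 7.17, 7.24 and 7.10 in control-OE arrays, more than 1 log2 apart at every pair of arrays. The difference was 1.20 (SE 0.11, adjusted p = 7.75e-08). Of all genes 3.13% passed here, and 3 of these 8 did.

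ALDH1A1 in 2D read 9.70, 9.74 and 9.96 in DPPA3-OE arrays, against 9.02, 9.08 and 9.25 in control-OE arrays. These did not overlap, and the difference was 0.69 (SE 0.10, adjusted p = 0.000112). ABCC2, the apical pump that secretes conjugates into bile and the gut lumen, read 3.82, 3.66 and 3.93 in DPPA3-OE arrays, against 3.26, 3.00 and 3.40 in control-OE arrays. The groups were apart, with a difference of 0.58 (SE 0.13, adjusted p = 0.00748). This call was lost without DPPA3-OE replicate 3 (0.52, adjusted p = 0.0544) or without control-OE replicate 2 (0.47, adjusted p = 0.0641), and the adjusted p over its 12 alternatives lay between 0.00723 and 0.0641.

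ABCC4 was again uncalled in 2D, at 4.26, 4.15 and 4.36 in DPPA3-OE arrays and 3.86, 4.04 and 3.98 in control-OE arrays, groups that did not overlap (difference 0.30, SE 0.15, adjusted p = 0.384). ABCC3 differed by -0.16 (adjusted p = 0.633), ABCC1 by 0.21 (0.603), DPYD by 0.17 (0.658) and ABCG2 by 0.04 (0.905), the p-values being adjusted ones from limma. The ABCC3 groups did not overlap either, at 4.65, 4.64 and 4.50 in DPPA3-OE arrays, below 4.72, 4.87 and 4.67 in control-OE arrays. Again 7 of 8 differences were above 0, against 51.2% of all genes, with a median of 0.25, against 0.00 over all genes. As in 3D, this count is a description only. Because the 3D and 2D comparisons use the same pair of lines, a standing difference between the lines would appear in both.

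The difference between the OE lines, called the induction effect for short, was tested directly for a change between 3D and 2D. Of the 8 genes 0 passed, against 0.241% of all genes. Without adjustment, 2 of the 8 had a p under 0.05, against 1566 of the 17448 genes tested. The effect was 0.42 log2 larger in 3D for ABCC3 (95% interval 0.08 to 0.77, adjusted p = 0.416) and smaller in 3D for ALDH1A1, by -0.35 (-0.65 to -0.06, adjusted p = 0.423). For ABCB1 the difference of effects was -0.30 (-0.61 to 0.02, adjusted p = 0.587). Thus the ABCB1 difference between the OE lines after 5 days in 3D and after 4 hours in 2D could not be separated in size by this test.

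Genes that neighbour ABCB1 on chromosome 7 were examined in both inductions. Among the 6 tested genes on each side, 11 of 12 had a difference above 0 in 3D, with a median of 0.13, and 11 of 12 in 2D, with a median of 0.10. Of all genes, 47.4% were above 0 in 3D and 51.2% in 2D, and 5.7% and 3.13% passed. ELAPOR2 passed in 3D (0.88, adjusted p = 0.00316) and in 2D (0.72, 0.0242), as did SLC25A40, a mitochondrial carrier (0.41, 0.0393 in 3D and 0.50, 0.0169 in 2D). ADAM22, a membrane protein of the metalloprotease family, passed in 2D alone (0.54, adjusted p = 0.00702), with 0.38 in 3D (adjusted p = 0.0555). ABCB4, the adjacent phosphatidylcholine pump and closest relative of ABCB1, differed by 0.05 in 3D and 0.03 in 2D and passed in neither. Its signal was dim, with a mean of 2.50 log2. The neighbours of ABCC2 and of ALDH1A1 passed in neither induction (0 of 12 each).

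**Figure D3:**
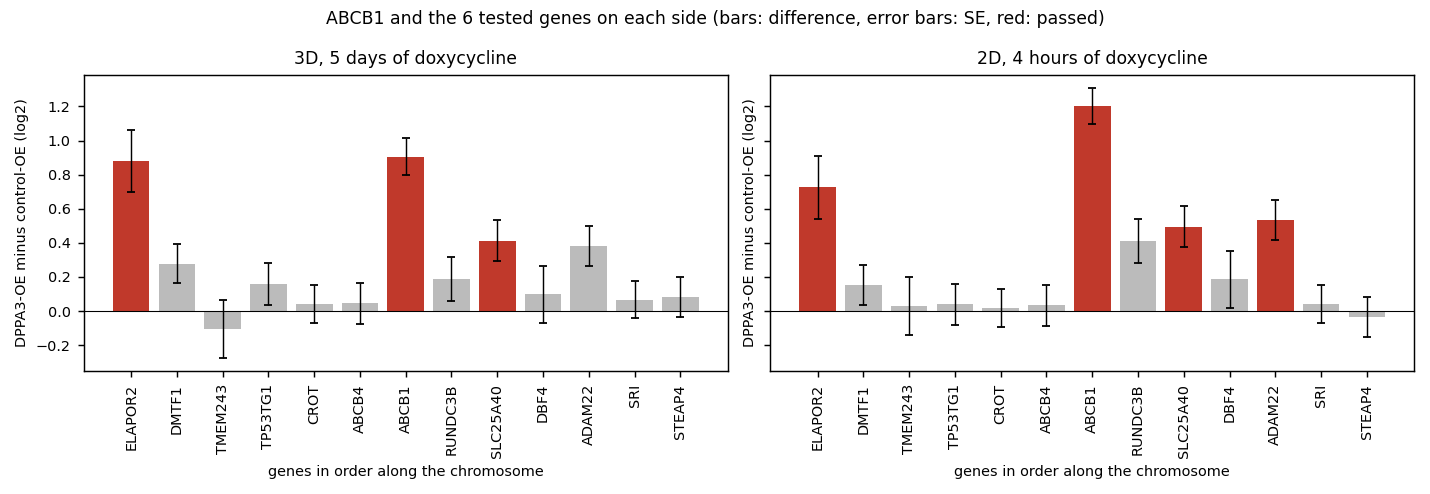
Log2 difference, DPPA3-OE minus control-OE (bar), with its standard error (line), for ABCB1 and the 6 tested genes on each side in chromosome order, in 3D on the left and 2D on the right. Red bars passed. ABCB1 stands at 0.91 and 1.20, ELAPOR2 at 0.88 and 0.72, while adjacent ABCB4 is near 0 in both.

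With the DPPA3 shRNA, against the control shRNA in 3D, 0 of the 8 genes passed in limma, 0 had an unadjusted p under 0.05, and the differences lay between -0.19 and 0.29 log2. Of all genes 0.086% passed, and 917 of the 17448 tested had an unadjusted p under 0.05. The shRNA arrays did not show a lower DPPA3 signal than their controls: the difference was -0.04 (SE 0.31), at the dim end of the scale, where a fall may not show. ABCB1 read 7.81, 7.53 and 7.36 in DPPA3 shRNA arrays, against 7.76, 7.79 and 7.72 in control shRNA arrays. One shRNA array lay above all controls, and the difference was -0.19 (95% interval -0.41 to 0.03). ABCC1 had the largest difference, at 6.03, 5.62 and 5.58 in DPPA3 shRNA arrays and 5.40, 5.36 and 5.60 in control shRNA arrays (0.29, interval -0.01 to 0.59, adjusted p = 0.956), with 1 control array among the shRNA arrays.

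ALDH1A1 read 8.71, 8.59 and 8.49 in DPPA3 shRNA arrays, against 8.44, 8.57 and 8.56 in control shRNA arrays, and these overlapped (difference 0.07, interval -0.14 to 0.28). ABCC4 read 4.73, 4.13 and 3.95 in DPPA3 shRNA arrays, against 4.33, 4.55 and 4.36 in control shRNA arrays, with the shRNA arrays both above and below the controls. ABCC2 read 3.22, 3.20 and 3.03 in DPPA3 shRNA arrays and 2.97, 2.99 and 3.05 in control shRNA arrays (difference 0.14, interval -0.12 to 0.41), with 1 shRNA array inside the control range. For ABCC3 the values were 5.76, 5.64 and 5.54 in DPPA3 shRNA arrays and 5.58, 5.56 and 5.78 in control shRNA arrays, a difference of 0.01 (interval -0.24 to 0.25), and the ranges nearly coincided.

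The knockout clones were each set against the line with the scrambled guide, whose 2 arrays they share. In clone 66, ALDH1A1 was 1.57-fold higher and was the 1 gene of the 8 that passed, against 1.43% of all genes. In clone 75, 0 of the 8 passed, against 0.619% of all genes. There 0 of the 8 had an unadjusted p under 0.05, against 1417 of the 17448 genes tested. ALDH1A1 read 9.15 and 9.11 in clone 66 and 8.55 and 8.41 in clone 75, against 8.54 and 8.41 with the scrambled guide. Clone 66 stood apart from both other groups, with a difference of 0.65 from the scrambled guide (SE 0.12, adjusted p = 0.00331). That call was lost without replicate 2 of the scrambled guide (0.59, adjusted p = 0.0919) or replicate 1 of clone 66 (0.63, adjusted p = 0.0598), with adjusted p between 0.000328 and 0.0919 over its 11 alternatives. DPPA3 read between 2.55 and 3.19 on all shRNA and knockout arrays, so it could not check the knockout.

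ABCB1 read 6.70 and 6.78 in clone 66 and 7.15 and 7.33 in clone 75, against 7.26 and 7.07 with the scrambled guide. Clone 66 lay below every other array of the series, yet its difference from the scrambled guide, -0.42 (SE 0.13, adjusted p = 0.13), did not pass. Clone 75 overlapped the scrambled guide, with a difference of 0.08 (interval -0.19 to 0.35). ABCC4 read 4.20 and 4.26 in clone 66 and 4.04 and 4.00 in clone 75, against 4.03 and 4.01 with the scrambled guide, and neither clone passed. ABCC3 read 5.59 and 5.72 in clone 66 and 5.75 and 5.99 in clone 75, against 5.83 and 5.56 with the scrambled guide, whose range both clones overlapped. For ABCC1, the values were 5.29 and 5.65 in clone 66 and 5.63 and 5.24 in clone 75, against 5.67 and 5.43 with the scrambled guide, and all 3 groups overlapped. ABCC2 lay between 2.90 and 3.16 on all 6 arrays.

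Set directly against each other, clone 66 was higher than clone 75 in ALDH1A1 by 0.65 (SE 0.12, adjusted p = 0.00174) and lower in ABCB1 by -0.50 (SE 0.13, adjusted p = 0.0316). These 2 of the 8 genes passed, against 2.9% of all genes. The ABCB1 call was lost in 6 of 11 alternatives, among them each of the 4 fits that left out 1 array (adjusted p between 0.0164 and 0.364 over all 11). Leaving out replicate 2 of clone 75 also ended the ALDH1A1 call (0.58, adjusted p = 0.0569). None of the 12 neighbours of ABCB1 passed between the clones, while 2 of the 12 neighbours of ALDH1A1 were higher in clone 66, ANXA1, an annexin that binds phospholipids, by 1.41 (adjusted p = 3.57e-05) and GDA, guanine deaminase, by 0.95 (adjusted p = 0.0216).

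The OE lines in 3D were also set against the same lines in 2D, where ABCC3 was higher in 3D in both lines and ALDH1A1 was lower in 3D in the DPPA3-OE line. In the control-OE line ABCC3 read 5.37, 5.31 and 4.97 in 3D, against 4.72, 4.87 and 4.67 in 2D. These did not overlap, with a difference of 0.46 (SE 0.12, adjusted p = 0.0164), and 1 of the 8 genes passed, against 7.8% of all genes. The call was lost without 3D replicate 1 or 2 or 2D replicate 1 or 3, and when the variance came from the 6 compared arrays (adjusted p between 0.00451 and 0.0889 over 13 alternatives). In the DPPA3-OE line ABCC3 read 5.59, 5.30 and 5.55 in 3D, against 4.65, 4.64 and 4.50 in 2D, a clear separation, with a difference of 0.88 (SE 0.12, adjusted p = 1.03e-05). Here 2 of the 8 passed, against 14.9% of all genes, and the ABCC3 call held in all 13 alternatives. Among the 12 neighbours of ABCC3, 2 were also higher in 3D in both lines, SPATA20 and ANKRD40CL.

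ALDH1A1 in the DPPA3-OE line read 9.0, 9.15 and 9.24 in 3D, against 9.70, 9.74 and 9.96 in 2D, and fell by 0.67 log2 in 3D (SE 0.10, adjusted p = 3.86e-05). In the control-OE line its difference was -0.32 (SE 0.10, adjusted p = 0.0508), with 8.86, 8.73 and 8.81 in 3D, against 9.02, 9.08 and 9.25 in 2D. The control-OE arrays did not overlap either, and 3 of 13 alternatives passed (adjusted p between 0.0192 and 0.202). Among the 12 neighbours of ALDH1A1, C9orf85 and ANXA1 passed in the DPPA3-OE line, 1 of them higher and 1 lower in 3D. ABCB1 differed by -0.27 in the DPPA3-OE line (adjusted p = 0.0908) and by 0.02 in the control-OE line. ABCC1 in the control-OE line read 5.80, 5.64 and 5.48 in 3D, against 5.46, 5.26 and 5.29 in 2D, groups just apart (difference 0.30, adjusted p = 0.219). Both lines showed ABCC3 higher in 3D with separate arrays, while the test of the difference between lines is the one given above for the induction effects.

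Levels differed between the 3D controls, and these differences were not tested. The controls are different lines, and of them the control-OE line alone had doxycycline. ABCB1 read 7.30, 7.22 and 7.06 in the control-OE line, 7.76, 7.79 and 7.72 with the control shRNA and 7.26 and 7.07 with the scrambled guide. ALDH1A1 averaged 8.80 ± 0.06 in the control-OE line, 8.52 ± 0.07 with the control shRNA (SD, n = 3 each) and 8.48 ± 0.09 with the scrambled guide (n = 2). The ABCB1 signal of the control shRNA line was nearer to that of the induced line than the other controls were.

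Genes with the most similar pattern were sought by Pearson correlation over the 9 group means, among 1439 genes whose means spanned at least 1 log2, for ABCB1, ABCC3 and ALDH1A1. The 9 points share a cell line, and the OE lines appear in both 3D and 2D, so the correlations are a description only. For ABCB1 these were FXYD5, a sodium pump regulator (r = 0.921), DPP4, a cell surface peptidase (0.904), and VPS37A, a subunit of the endosomal sorting complex ESCRT-I (0.903). For ABCC3 they were VEGFA, the angiogenic growth factor (0.995), ATP10B (0.984) and ATP6AP1L (0.977). For ALDH1A1 they were SERPINB5, or maspin (0.960), the actin-binding PARVA (0.950) and the kinase MARK1 (0.950). VEGFA averaged 7.38 ± 0.09 in DPPA3-OE in 3D and 6.83 ± 0.13 in control-OE in 3D, with 5.57 ± 0.24 in DPPA3-OE in 2D and 5.71 ± 0.29 in control-OE in 2D (SD, n = 3 each). It was higher in 3D than in 2D by 1.81 in the DPPA3-OE line (adjusted p = 1.75e-09) and by 1.12 in the control-OE line (adjusted p = 9.78e-06). Among the 8 genes, the most opposed patterns were those of ABCC3 and ALDH1A1 (r = -0.79), and the most alike those of ABCB1 and ABCC2 (r = 0.71), over the same 9 means.

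**Figure D4:**
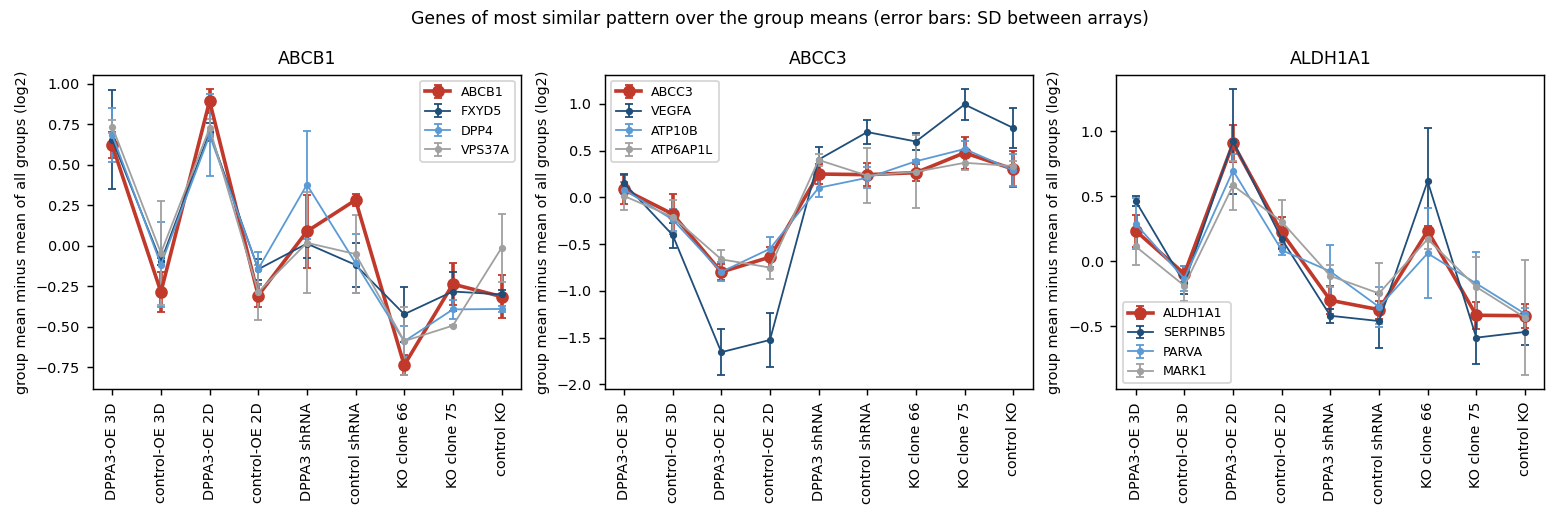
Group mean minus the mean of the 9 groups (log2, points) with the SD between arrays (error bars), for ABCB1, ABCC3 and ALDH1A1 in red and the 3 genes of most similar pattern. Lines join groups to guide the eye. VEGFA follows ABCC3 over a wider range, with group means spanning 2.65 log2 against 1.28 for ABCC3.

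Other transporters were counted from lists. For the list counts here and below, the share of all genes that passed was 5.7% in DPPA3-OE in 3D and 3.13% in 2D. It was 1.43% in clone 66, 0.619% in clone 75 and 0.086% with the shRNA. Between the clones it was 2.9%, and for the DPPA3-OE line in 3D over 2D 14.9%. Of 20 measured relatives in subfamilies B, C and G, 1 was higher in DPPA3-OE in 3D (TAP1, a peptide transporter for antigen presentation, 0.74, adjusted p = 0.00034) and 0 in 2D, with 0 lower in either. Of 12 lipid transporters of subfamily A, 0 passed in either induction. Of 25 drug uptake carriers, 4 were higher and 0 lower in 3D, including the organic anion carriers SLCO1B3 (0.79) and SLCO1B1 (0.71) and SLC67A1, earlier named SLC22A18 (0.75). The copper and cisplatin importer SLC31A1 was the other in 3D, and the 1 of the 25 that was higher in 2D (0.45). Clone 66 had 1 relative higher, the nucleotide exporter ABCC5 (0.63), and SLCO2B1 higher (0.66) with SLCO3A1 lower (-1.12) among the carriers. With the shRNA and in clone 75, 0 members of these 3 lists passed.

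Of 18 other aldehyde dehydrogenases, 0 passed in DPPA3-OE in 3D and 1, ALDH3A1, was higher in 2D (0.50). In clone 66, ALDH3B2 alone was higher than with the scrambled guide (0.92). Among 20 measured genes of retinoic acid handling and response, 3 were higher and 0 lower in each induction. RARB, a retinoic acid receptor that retinoic acid itself induces, was higher in both, by 0.75 in 3D and 0.65 in 2D. The retinol dehydrogenases RDH10 (0.42) and RDH11 (0.46) made up the 3 in 3D, and the alcohol dehydrogenase ADH1C (0.68) and PLAAT4 (0.46) those in 2D. In both clones and with the shRNA, 0 of the 20 passed.

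The pathway of DPYD was followed through 32 measured genes of fluoropyrimidine activation, targets and breakdown. In DPPA3-OE in 3D, 1 was higher, the folate enzyme SHMT2 (0.53), and 2 were lower, the nucleotide hydrolase SAMHD1 (-0.58) and MTHFD1 (-0.41). In 2D, 1 was higher, thymidylate synthase TYMS, the target of 5-fluorouracil (0.60). For the DPPA3-OE line in 3D over 2D, where 14.9% of all genes passed, 2 were higher and 11 lower. TYMS stood at -0.74 and the ribonucleotide reductase subunit RRM1 at -0.89. The median of the 32 was then -0.20, against -0.03 over all genes. Clone 66 had CDA, cytidine deaminase, higher by 0.75, and clone 75 had UMPS, which activates 5-fluorouracil, higher by 0.66.

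Enzymes that make conjugates for the ABCC pumps moved in small numbers. Of 27 measured, 3 were higher in DPPA3-OE in 3D, the sulfotransferase SULT1B1 (1.09), the acetyltransferase NAT2 (0.85) and the epoxide hydrolase EPHX1 (0.52). In 2D, EPHX1 (0.58) and SULT1A1 (0.55) were higher and GCLC, a subunit of the enzyme that begins glutathione synthesis, was lower (-0.51). GSTA1, a glutathione transferase with near-identical relatives, was higher in clone 66 (1.26). Of 13 cytochromes P450, CYP1B1 (0.51) and CYP2B6 (0.47) were higher in DPPA3-OE in 3D and 0 passed in 2D, while CYP1A1 was lower in 3D than in 2D by -4.26 in the DPPA3-OE line and by -3.23 in the control-OE line. Of 6 measured irinotecan genes, TDP1, which repairs topoisomerase lesions, was lower in DPPA3-OE in 3D (-0.70), and CES1, a carboxylesterase, was higher in clone 66 (1.16). Of 12 platinum genes, the mismatch repair gene MSH6 was lower in DPPA3-OE in 3D (-0.54).

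Of 26 measured regulators linked to such genes, 0 passed in DPPA3-OE in 3D, and in 2D AHR, the aryl hydrocarbon receptor, was higher (0.42) and PPARA lower (-0.65). Of 18 other stem cell and chemoresistance markers, 2 were higher and 2 lower in each induction. The intestinal stem cell receptor LGR5 was higher by 0.59 in 3D and 1.02 in 2D, and the receptor KIT by 3.08 in 3D and 1.06 in 2D. ALCAM was lower in both, by -0.57 in 3D and -0.72 in 2D, and so were MGMT in 3D and BCL2 in 2D. In clone 66 LGR5 (-1.16) and KIT (-1.38) were lower and ALDH1A1 was higher. With the shRNA, 0 members of any of the 12 lists passed.

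The cell line label was checked against markers. By mean signal over all arrays, all 14 colorectal epithelial markers lay above the upper quartile of genes. By the same mean, 1 of 9 fibroblast, 1 of 7 measured leukocyte and 1 of 5 measured endothelial markers lay above the median gene. Beside the ABCB1, ALDH1A1 and ABCC2 differences in 2D, 3 of the 14 epithelial markers were lower in DPPA3-OE arrays, KRT20 (-0.54), CDH17 (-0.32) and CEACAM5 (-0.72), and in 3D 1 was higher, TFF3 (0.85). Beside ALDH1A1 in clone 66, KRT20 was higher (0.61), as was CD68 (0.71), a lysosomal protein counted here as a leukocyte marker, while the pan-leukocyte marker PTPRC stood at a mean of 2.14 log2 with a difference of -0.00. Between the clones KRT20 (0.97), CEACAM5 (0.70) and CD68 (1.08) were higher in clone 66. Beside ABCC3 and ALDH1A1 in the DPPA3-OE line in 3D over 2D, 6 of the 14 epithelial markers were higher. The summed level of the 14 epithelial markers lay between 13.40 and 13.44 log2 in clone 66, against 13.20 and 13.27 with the scrambled guide, and that of the 7 leukocyte markers between 6.50 and 6.62 in clone 66, against 6.13 and 6.19 with the scrambled guide. In 2D the epithelial sum lay between 12.78 and 12.84 in DPPA3-OE arrays, against 12.92 and 12.93 in control-OE arrays, and in 3D between 13.05 and 13.20 in DPPA3-OE arrays, against 12.72 and 13.07 in control-OE arrays. The part of these differences in the results above was not tested.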

How the data were processed

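Total RNA from SW1222 cells was labelled with biotin for 24 Affymetrix arrays, per the labels' protocols. The deposited values are log2 signals that the authors made with Partek 6.6 and RMA, which corrects background, equalises arrays by quantiles and summarises probe sets, per the submitters' processing notes. RMA draws arrays together, so differences are relative to the bulk of genes. No genome build is given in the sources used here. Log2 values ran from 1.56 to 12.5, and array medians from 4.03 to 4.13.

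Of 20276 probe sets, 18062 carried 1 gene symbol, and 1288 with several symbols and 926 with none were left out. The probe set with the highest mean stood for each of 17448 genes, of which 468 had more than 1. All arrays entered 1 limma fit (3.58.1, R 4.3.3) that estimated every group's mean, with empirical Bayes variances on 15 residual and 9.81 prior degrees of freedom, 2-sided tests and Benjamini-Hochberg adjustment over all genes. A gene passed at an adjusted p under 0.05. Groups overlapped where their array ranges did. The method was tested on simulated data.

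The 8 genes and the 12 lists (257 genes) were chosen with earlier results of these data known. From each list up to 3 members that passed, those with the smallest p, were named with values per comparison. Neighbours were the 6 tested genes on each side in RefSeq order, named where they passed with the gene. Promoters came from RefSeq. Same-numbered replicates were checked for pairing: their deviations from group means correlated between -0.21 and 0.17. This cannot settle whether the numbers pair samples, and the fit reported here used no pairing. Replicate arrays correlated across genes at 0.987 to 0.994. Alternatives were the variance from the compared arrays alone, a trended and robust prior, a replicate block, arrays centred on medians, genes below the median level left out, every probe set tested, the mean of a gene's probe sets, and leaving out each array.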

Additional observations from a re-analysis of the deposited data

Results flagged for a closer look

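For 2 of the 8 genes the effects of the knockout clones, taken against the same arrays of the scrambled guide, differed from each other in a direct test. ABCB1 was lower in clone 66 than in clone 75 by -0.50 log2 (SE 0.13, adjusted p = 0.0316 in limma), with 6.70 and 6.78 in clone 66 and 7.15 and 7.33 in clone 75. ALDH1A1 was higher in clone 66 by 0.65 log2 (SE 0.12, adjusted p = 0.00174), with 9.15 and 9.11 in clone 66 and 8.55 and 8.41 in clone 75. Each clone is 1 line on 2 arrays, so the effect of the knockout and of the clone cannot be told apart.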

How the results depend on the processing

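None of the 72 differences changed direction while passing in either setting, and 23 of 909 values under alternatives changed their side of the threshold. A further 48 values of 25 differences that did not pass, none larger than 0.15 log2 as reported, changed sign. The number of the 8 genes that passed in DPPA3-OE over control-OE in 3D was 1, but 2 with the trended and robust prior and with genes below the median level left out (ALDH1A1 added), and 1 to 2 when 1 array was left out. For clone 66 over the scrambled guide it was 1, and 0 to 1 when 1 array was left out. For clone 66 over clone 75 it was 2, but 1 with the variance of the compared arrays alone and 1 with the replicate block (ABCB1 lost, adjusted p = 0.0702 and 0.0509), and 0 to 1 when 1 array was left out. For the control-OE line in 3D over 2D it was 1, but 0 with the variance of the compared arrays alone, 2 with the trended and robust prior, with centred arrays and with genes below the median level left out, and 0 to 1 when 1 array was left out. The replicate block changed no other call among the 8 genes. The cause of these changes was not tested, except that leaving out dim genes removes ABCC2, ABCG2 and DPYD from the test.

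Counts over all genes moved by more than 1.5 times with the variance of the compared arrays alone: 468 in place of 995 for DPPA3-OE over control-OE in 3D, 314 in place of 546 in 2D, 7 in place of 42 for the difference of these effects and 562 in place of 1361 for the control-OE line in 3D over 2D. Leaving out 1 array gave 663 to 989 in 3D, 11 to 70 for the difference of effects, 875 to 1221 for the control-OE line in 3D over 2D, 8 to 12 in place of 15 for the shRNA, 89 to 120 in place of 250 for clone 66, 38 to 67 in place of 108 for clone 75 and 259 to 270 in place of 506 between the clones. A knockout group left with 1 array was assumed to vary like the other groups.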
